A study of Mus musculus with 4 samples.

Results

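The 8 genes described here, Hmgcs1, Idi1, Fdps, Fdft1, Sqle, Lss, Cyp51 and Dhcr7, encode enzymes of cholesterol synthesis and were chosen by name, in the array's capitals IDI1, FDPS, SQLE, LSS, CYP51 and DHCR7 for those with a probe. RNA of the cerebellum of Swiss mice at postnatal day 7 was measured on Illumina mouse arrays. The anterior lobes gave 2 samples and the posterior lobes gave 2, with no treatment and 1 array for each sample. No allele or transgene is named for either lobe, and the sources used here do not say whether the samples came from separate animals or pools. All probes that carry a member's symbol were taken, which gave 10 probes of 6 genes among the 45281 probes and 30854 symbols of the array. Hmgcs1 and Fdft1 had no probe under these symbols in the table analysed. Of the 10 probes, 8 from 6 genes were detected on all 4 arrays, and all of these were among the 21726 probes tested. A probe counted as detected at a detection p under 0.05, where few negative controls reached its brightness, and detection on at least 2 arrays was required for the test. The other 2 probes were detected on 0 arrays. The second Lss probe, ILMN_2444540, gave intensities of 75.1 and 59.3 in the anterior and 64.6 and 73.0 in the posterior lobe. The third Sqle probe, ILMN_2573600, lay between 74.7 and 76.4 on the 4 arrays.

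Cells make cholesterol from acetyl-CoA. Hydroxymethylglutaryl-CoA is formed by Hmgcs1 and converted to mevalonate, isoprenoid units are built and joined by Idi1, Fdps and Fdft1 into squalene, Sqle and Lss oxidise and close squalene into lanosterol, and Cyp51, Dhcr7 and further enzymes turn lanosterol into cholesterol. Transcription of these genes is raised by SREBP-2 when membrane sterol is low, together with NF-Y, a factor that binds the CCAAT box. The brain makes its own cholesterol because lipoproteins do not cross the blood-brain barrier, and during postnatal growth much of it goes into myelin, the membrane sheath that oligodendrocytes wrap around axons.

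The promoter sequences are shown because all members with a promoter window, 4 of them with array values, hold the CCAAT box of NF-Y. RefSeq promoter windows (GRCm38.p6) were held for 5 of the 8 genes, Hmgcs1, Idi1, Lss, Cyp51 and Dhcr7, and 250 bases before each start were searched on both strands. The letters CCAAT, read as ATTGG on the other strand, occurred in 5 of 5 genes, for Dhcr7 only in the third of 3 windows. CCAAT occurred in 10 of the 12 other enzymes of the pathway with a window and in 33.85% of all 32851 windows. A gene was counted if any of its windows held the motif, whereas the percentages are over single windows, so the units differ. The strict sterol element TCACNCCAC, which does not overlap the CCAAT letters, was found in Hmgcs1 only among these genes, and in 1.053% of all windows. The relaxed form TCACNCNAC was found in Hmgcs1 and Nsdhl, and in 2.262% of all windows. The E box CACGTG was found in Dhcr7 and 2 other enzymes, and in 6.021% of all windows. A match is a description of the letters and not of binding. The motif is in capitals with up to 10 bases on each side, on the strand of the gene.
Hmgcs1, chr13:119690204-119690232 (+ strand), sterol element: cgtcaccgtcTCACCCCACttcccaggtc
Idi1, chr13:8885551-8885575 (+ strand), CCAAT box: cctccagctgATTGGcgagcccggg
Lss, chr10:76531533-76531557 (+ strand), CCAAT box: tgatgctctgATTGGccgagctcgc
Cyp51, chr5:4104712-4104736 (- strand), CCAAT box: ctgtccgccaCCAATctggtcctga
Dhcr7, chr7:143830119-143830143 (+ strand), CCAAT box: actgccttcaCCAATcacaggacgc

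Expression of the cholesterol synthesis enzymes was compared between the lobes. The mean bead intensity of each probe was quantile normalized, log2 transformed and compared with limma, posterior minus anterior. The study called a gene at more than 1.2-fold and an unadjusted p below 0.05. Under this criterion 0 of the 8 member probes passed, against 8.29% of all 21726 tested probes, and so did 0 of the 6 genes, against 10.1% of the 15615 tested symbols. At that background a count of 0 among 8 probes does not set the members apart. After Benjamini-Hochberg adjustment 0 of 8 had an adjusted p under 0.05, against 0.106% of all tested probes. Without the fold threshold, limma gave 0 of 8 member probes with an unadjusted p under 0.05, against 10.1% of all tested probes. The methods' t-test gave 2 of 8, those of Idi1 and Sqle (ILMN_2737163), neither at 1.2-fold, against 8.11% of all tested probes. By sign, 4 probes were higher and 4 lower in the posterior lobe. The arrays of the lobes did not overlap for 3 of the 8, against 42.6% of all tested probes. The median log2 difference of the 8 probes was -0.0059, beside 0.0023 over all tested probes. The median size of the difference was 0.15 for the members, beside 0.10 over all tested probes. With 2 arrays a lobe the smallest p of an exact two-sided permutation test is 0.33, and limma was used because it borrows the spread from the whole table. In these pieces of tissue, fewer cells of a type and less RNA per cell cannot be told apart.

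**Figure D1:**
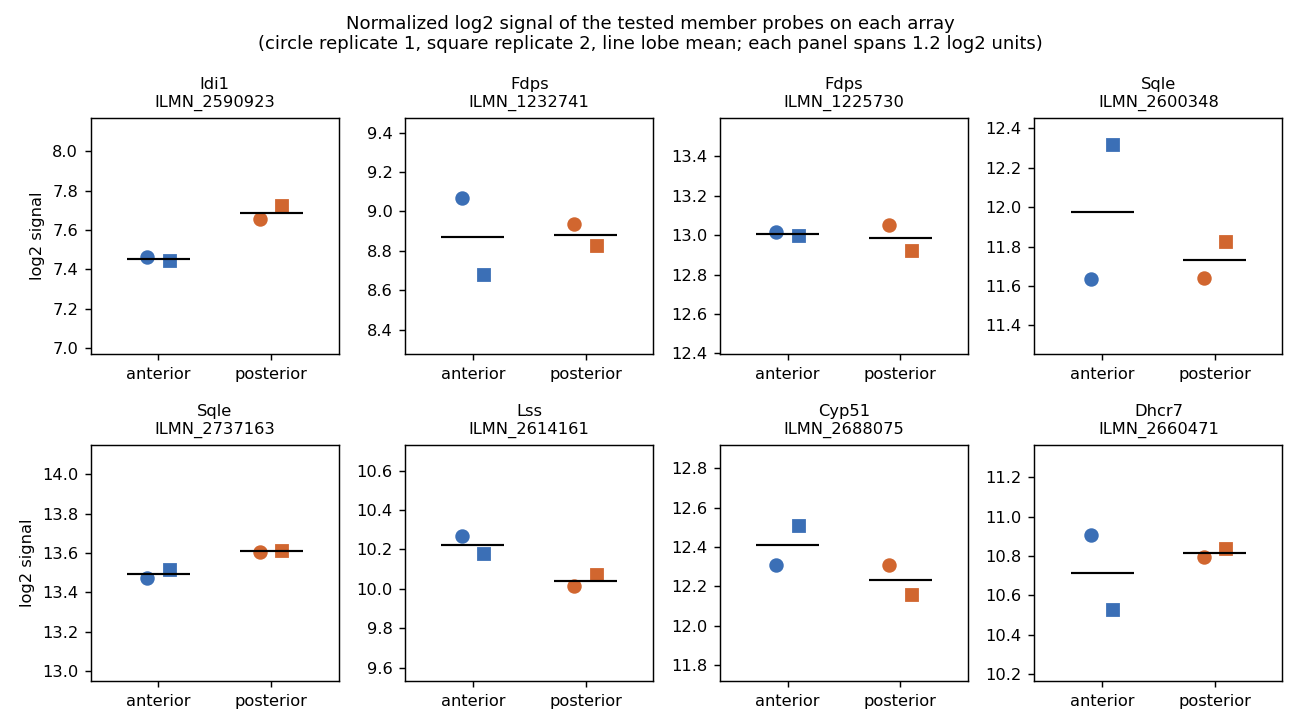
Normalized log2 signal (vertical axis) of each of the 8 tested member probes on each array, with the anterior lobe in blue and the posterior lobe in orange; circles are replicate 1, squares replicate 2 and lines the mean of a lobe. The lobes are apart for Idi1, for Sqle ILMN_2737163 and for Lss, and overlap for the other 5 probes.

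Idi1, the isomerase that makes the reactive isoprenoid unit, had unnormalized intensities of 191.6 and 157.6 on the anterior and 200.5 and 212.3 on the posterior arrays. Both posterior arrays were above both anterior arrays, before and after normalization. The difference was 0.24 on the log2 scale, or 1.18-fold (SE 0.10, 95% interval -0.018 to 0.49, n = 2 per lobe), and did not pass limma's test (adjusted p = 0.53). Fdps, which joins the isoprenoid units into farnesyl diphosphate, had 2 tested probes. The probe ILMN_1225730 gave intensities of 8941.6 and 7533.0 against 8307.5 and 7911.3. Its lobes overlapped, and the log2 difference was -0.020 (SE 0.071, interval -0.20 to 0.16, limma adjusted p = 0.95). The probe ILMN_1232741 gave 587.1 and 375.4 against 479.6 and 457.2. Both posterior values lay between the anterior ones, with a log2 difference of 0.0084 (SE 0.16, interval -0.39 to 0.41, limma adjusted p = 0.99).

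Sqle, squalene epoxidase, an oxygen-dependent, rate-limiting enzyme of the sterol branch, gave different pictures by probe. The probe ILMN_2737163 had intensities of 12230.2 and 10780.6 against 12245.8 and 12721.2, which on the normalized log2 scale became 13.47 and 13.51 against 13.61 and 13.61. Both posterior arrays were above both anterior arrays, by 0.12 (SE 0.056, interval -0.021 to 0.25, limma adjusted p = 0.55). The probe ILMN_2600348 had 3431.2 and 4727.7 against 3102.4 and 3708.9. Anterior replicate 2 stood above the other 3 arrays, whose normalized log2 signals were 11.64, 11.64 and 11.82 beside its 12.31. The standard errors over the beads on the anterior arrays were 163 and 158 intensity units, smaller than the gap between these arrays. The log2 difference was -0.24 (SE 0.22, interval -0.77 to 0.29), with a limma adjusted p of 0.73. It was -0.58 without anterior replicate 1 (adjusted p = 0.0026) and 0.096 without anterior replicate 2, so that its sign rests on single arrays. The lobe difference of ILMN_2737163 was larger by 0.36 log2 units than that of ILMN_2600348, a gap between probes of 1 gene that was not tested.

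Lss, the cyclase that folds squalene epoxide into lanosterol, had intensities of 1329.8 and 1086.1 against 1005.6 and 1089.0 for ILMN_2614161. After normalization both posterior arrays were below both anterior arrays, while the unnormalized values of anterior replicate 2 and posterior replicate 2 were nearly equal. The difference was -0.18, or 1.13-fold (SE 0.099, interval -0.42 to 0.061, limma adjusted p = 0.59). Cyp51, the demethylase that acts on lanosterol, had intensities of 5443.0 and 5357.5 against 4946.5 and 4639.5. The unnormalized lobes were apart and the normalized ones overlapped narrowly. The log2 difference was -0.17 (SE 0.098, interval -0.42 to 0.067, limma adjusted p = 0.60). Dhcr7, a reductase of the last steps to cholesterol, had 2074.4 and 1384.4 against 1724.0 and 1860.9. Both posterior values lay between the anterior ones, with a log2 difference of 0.099 (SE 0.14, interval -0.24 to 0.44, limma adjusted p = 0.84).

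Across the 8 probes each intensity was a mean over 28 to 55 beads, with a standard error over beads of 2.29% to 5.43% of the intensity. The median gap between the 2 anterior arrays was 0.14 log2 units for the members and 0.14 for all tested probes. Between the 2 posterior arrays it was 0.089 for the members and 0.092 for all. Without anterior replicate 1 the criterion was passed by 3 members, Sqle through ILMN_2600348, Cyp51 (-0.27) and Dhcr7 (0.29), and the count over all tested probes went from 1802 to 4677. Without any other single array 0 members passed. Of the 8 probes, the signs of Idi1, Sqle ILMN_2737163, Lss and Cyp51 were kept in all 14 alternative analyses, and those of the other 4 turned in at least 1.

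The 8 probes did not share a profile. Their mean centred log2 profile was nearly flat, at 0.0085 and 0.011 on the anterior and -0.0061 and -0.014 on the posterior arrays. The probes lay at a root mean square distance of 0.046 (Fdps ILMN_1225730) to 0.27 (Sqle ILMN_2600348) from it over the 4 arrays. Of 19906 other probes detected on all 4 arrays, the 10 nearest to it were those of Mybbp1a, Ppme1, Cox7a2l, Rbm5, Cd86, Arl10c, D930001I22Rik, BC057079, Fahd2a and Ipo5, at distances of 0.0044 to 0.0087. These were probes with nearly equal signal on all arrays, and 2208 other probes were nearer to the mean profile than the nearest member was.

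The other enzymes of the pathway were next examined, with the brightest probe of each gene. Of 14 listed genes 13 were tested, and Idi2 was not detected. Under the criterion 0 of the 13 passed in limma, against 7.92% of the 15615 tested genes, and 0 had an unadjusted p under 0.05. The methods' t-test gave 2 of 13 with an unadjusted p under 0.05, Tm7sf2 and Sc5d, both below 1.2-fold, against 8.11% of all tested probes. The median log2 difference was 0.023, beside 0.0079 over all genes, with 8 genes higher and 5 lower by sign.

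**Figure D2:**
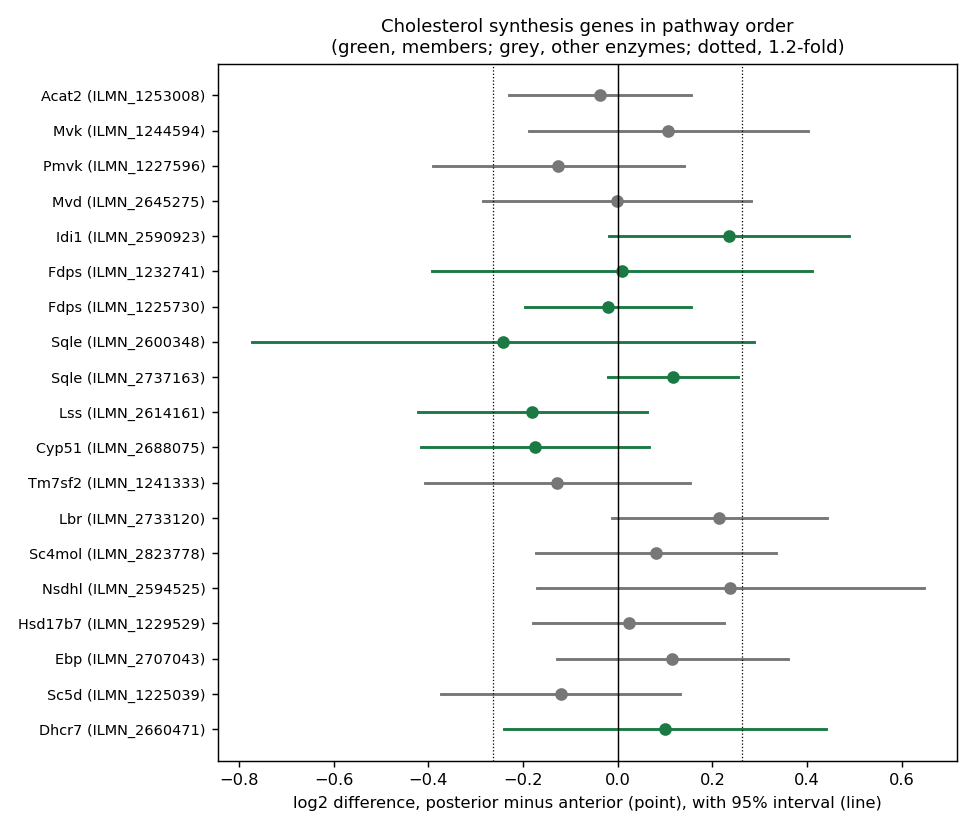
Log2 difference, posterior minus anterior (horizontal axis), with its 95% interval, for the tested probes of the members in green and the brightest probe of 11 other enzymes in grey, from the first step at the top to the last. The intervals of all the probes shown include 0, and that of Sqle ILMN_2600348, from -0.77 to 0.29, is the widest of them.

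Among the early enzymes, Acat2, which joins acetyl-CoA units, gave a log2 difference of -0.038, and the kinases Mvk and Pmvk gave 0.11 and -0.13. Mvd, the decarboxylase before Idi1, gave -0.0015. After lanosterol, the sterol reductase Lbr gave 0.22, with intensities of 7487.5 and 5418.5 against 7322.9 and 7444.9 (limma adjusted p = 0.52), and Tm7sf2, which carries out the same reduction, gave -0.13. The demethylation enzymes Sc4mol, Nsdhl and Hsd17b7 gave 0.081, 0.24 and 0.023. Ebp, the sterol isomerase, gave 0.12 and Sc5d, the desaturase before Dhcr7, gave -0.12. None of these passed. The 4 probes of Nsdhl gave 0.24, 0.28, -0.030 and 0.23, none past the criterion.

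The sterol sensing genes, which set the activity of the pathway, gave 0 of 9 tested genes past the criterion, against 7.92% of all tested genes. Their median was -0.040. The transcription factors Srebf2 and Srebf1 gave log2 differences of -0.040 and -0.12, and Scap, which escorts them to the Golgi, gave -0.20. Mbtps1, the protease that makes the first cut there, had the brightest probe and the lowest value, -0.22. Insig1, which holds Scap in the endoplasmic reticulum and is itself a target of SREBP-2, had intensities of 398.2 and 216.9 against 1154.1 and 331.0. Posterior replicate 1 stood far above the other 3 arrays, the lobes overlapped, and the log2 difference of 1.10 did not pass (SE 0.58, limma adjusted p = 0.58). Insig2 had 790.0 and 2065.1 against 733.1 and 2393.2. Its signal was high on replicate 2 and low on replicate 1 in both lobes, with a log2 difference of 0.072 (SE 0.67).

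**Figure D3:**
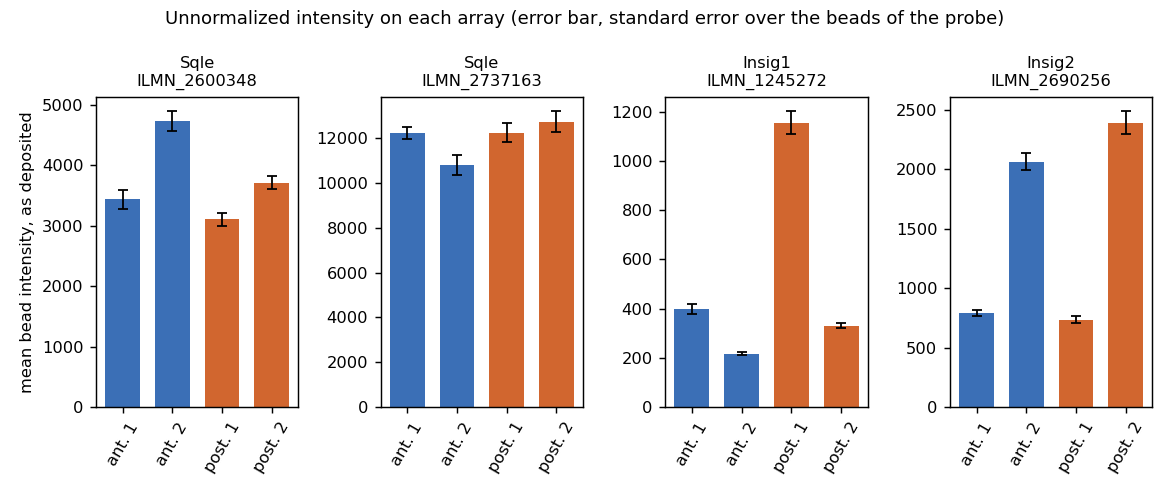
Unnormalized bead intensity (vertical axis, from 0) on the 4 arrays for both Sqle probes with a test, Insig1 and Insig2, with bars for the standard error over beads. Anterior replicate 2 is highest for Sqle ILMN_2600348 at 4727.7, posterior replicate 1 is highest for Insig1 at 1154.1, and both arrays of replicate 2 are high for Insig2.

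Of the genes of cholesterol uptake and transport, 1 of 14 tested (7.14%) passed the criterion, against 7.92% of all tested genes. At that background the count does not set the list apart. The median of the list was -0.099. Apoe, the apolipoprotein that astrocytes load with cholesterol, was lower in the posterior lobe, with intensities of 9958.5 and 9811.0 against 7486.7 and 8817.6. Both posterior arrays were below both anterior arrays, by 0.29 on the log2 scale, or 1.22-fold (SE 0.098, limma adjusted p = 0.42). Soat1, which esterifies cholesterol, had the highest value, 0.28, and did not pass. Of 3 oxysterol enzymes tested, 2 passed the criterion in opposite directions, against 7.92% of all tested genes in either direction. Cyp46a1, the neuronal hydroxylase that lets cholesterol leave the brain, had 248.5 and 261.6 against 183.0 and 189.2, a decrease of 1.38-fold (limma adjusted p = 0.39). Cyp7b1, an oxysterol hydroxylase, had 3176.4 and 2303.7 against 3175.9 and 3337.0, an increase of 1.21-fold after normalization (limma adjusted p = 0.46), although anterior replicate 1 and posterior replicate 1 were equal to within 1 unit before it.

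The branches that share substrates with the pathway were also looked at. In the isoprenoid branch 0 of 6 genes passed, against 7.92% of all tested genes, and the median was -0.0076. Fnta, a subunit of protein farnesyltransferase, had the brightest probe (-0.062), Pdss2 the highest value (0.054) and Dhdds the lowest (-0.078). Fatty acid synthesis also draws on acetyl-CoA and on SREBP factors. In it 2 of 11 genes passed, both lower in the posterior lobe, against 4.46% of all tested genes in that direction. These were the desaturases Scd1 (-0.27, limma adjusted p = 0.49) and Fads2 (-0.30, limma adjusted p = 0.45). Fads1 had the brightest probe (0.0044), and malic enzyme, listed as Mod1 on the array, the highest value (0.058).

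Myelin genes are given beside the enzymes because myelin holds much of the cholesterol of the brain. All 12 tested myelin genes passed the criterion and were lower in the posterior lobe, against 4.46% of all tested genes in that direction, with a median log2 difference of -0.81. This list was chosen with its direction known from earlier results of these data and is not independent evidence of it. The summed normalized signal of the list was 114495 and 114662 on the anterior and 77668 and 73237 on the posterior arrays. Mbp, myelin basic protein, had the brightest probe, with intensities of 29259.2 and 27722.4 against 20474.2 and 21279.0 (-0.45). Mal, a myelin proteolipid, had the largest decrease (-1.53, limma adjusted p = 0.049). Mag, Mobp, Ugt8a and Fa2h also passed the adjusted p (limma, 0.015 to 0.035), so that 5 of 12 did, against 0.128% of all tested genes. The summed signal of the 6 members, by their brightest probes, was 28056 and 28479 on the anterior and 29071 and 27922 on the posterior arrays. The lower bounds of the 95% intervals of the member probes were -0.77 for Sqle ILMN_2600348 and -0.42 or above for the other 7. A part of myelin cells in the members' values was not tested.

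**Figure D4:**
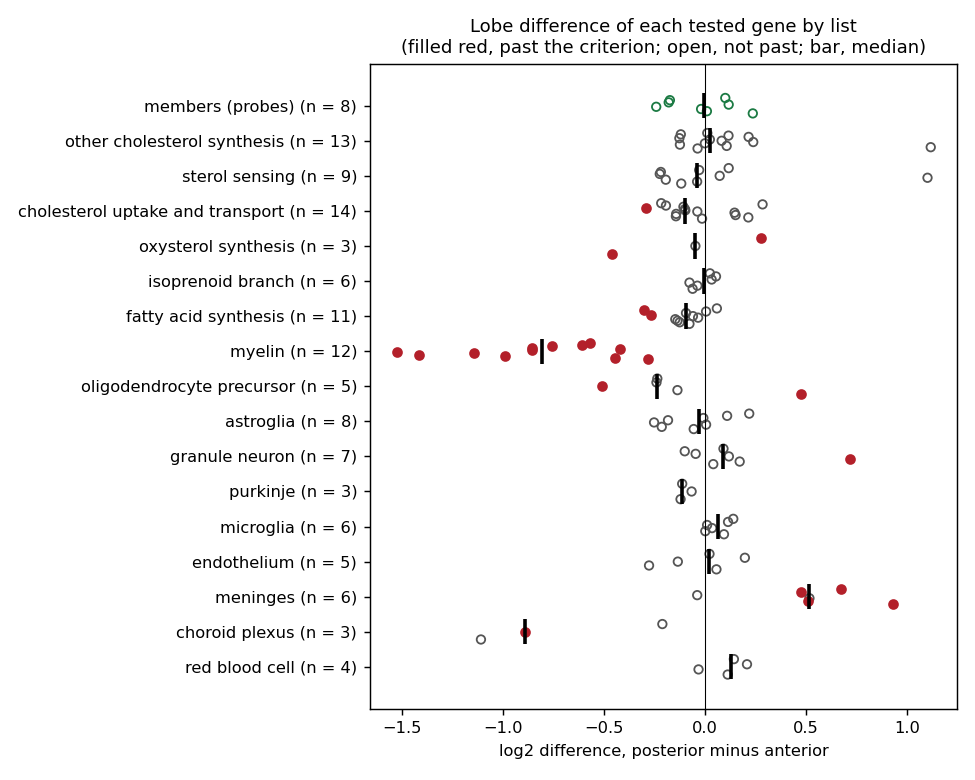
Log2 difference, posterior minus anterior (horizontal axis), of every tested gene by list, with n the number tested, red points past the criterion and a bar at the median; the members are shown by probe in green. The 8 member probes lie between -0.24 and 0.24, while all 12 myelin genes lie between -1.53 and -0.28.

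Markers of other cells were read to check the tissue. Granule neuron genes such as Zic1, Neurod1 and Cntn2 and the Purkinje cell genes Pcp2, Itpr1 and Rora were detected on all 4 arrays, while Calb1, Car8, Pcp4 and Atoh1 did not reach detection on 2 arrays. Of 5 oligodendrocyte precursor genes 2 passed the criterion, against 7.92% of all tested genes in either direction. Pdgfra was higher (0.47) and Sox10 lower (-0.51), and Olig1 had the brightest probe (-0.24). Of 6 genes of the meninges 4 passed and were higher in the posterior lobe, against 3.45% of all tested genes in that direction, led by Dcn (0.93, limma adjusted p = 0.024), with a median of 0.51. Igf2 had the brightest probe of that list (0.47) and Col1a2 the lowest value (-0.039). The summed signal of the meninges list was 14931 and 16980 against 22150 and 25746. Among 3 genes of the choroid plexus Clic6 passed and was lower (-0.89), against 4.46% of all tested genes in that direction. Ttr, the brightest of these, had 599.9 and 9501.9 against 325.9 and 3777.6 and was high on replicate 2 of both lobes, as Insig2 was, and Aqp1 gave -0.21. Of 7 granule neuron genes 1 passed, Zic2 (0.72), against 7.92% of all tested genes in either direction. Cntn2 was the brightest of the 7 (-0.047) and Gabra6 the lowest (-0.10).

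The remaining cell types gave no gene past the criterion. Of 8 astroglial genes Slc1a3 had the brightest probe (0.0044), Aldoc the highest value (0.22) and Aqp4 the lowest (-0.25). Of 3 Purkinje cell genes Itpr1 was the brightest (-0.067) and Pcp2 the lowest (-0.12). Of 6 microglial genes Cx3cr1 was the brightest (0.034), Tyrobp the highest (0.14) and Csf1r the lowest (0.00047). Of 5 endothelial genes Cldn5 was the brightest (0.056), Cdh5 the highest (0.20) and Pecam1 the lowest (-0.28). Of 4 red blood cell genes Hbb-b1 was the brightest (0.11), Alas2 the highest (0.21) and Hba-a1 the lowest (-0.033). The part of other cell types in the members' values was not tested.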

How the data were processed

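RNA of 2 anterior and 2 posterior lobe samples was measured on the MouseWG-6 v2.0 chip of Illumina. The authors deposited, per probe and array, the mean bead intensity without normalization or background subtraction, the bead SD (a signal measure), the number of beads, and a detection score given as a fraction, 1 minus the detection p. Another 16 columns were not used. Median intensity was 129.6 and 110.2 on the anterior and 121.8 and 123.7 on the posterior arrays, with 46.5% to 47.6% of probes detected and a median of 40 to 42 beads. The number of arrays limits the precision, and p-values measure only the spread between these samples, which may be technical. Intensities were quantile normalized, floored at 1 (no value lay below) and log2 transformed in R 4.3.3. All probes detected on at least 2 of 4 arrays were fitted with limma 3.58.1 (lmFit, eBayes with intensity trend) and adjusted over all by Benjamini-Hochberg. A member was called where any tested probe passed, and genes of other lists were represented by the probe with the highest mean signal. The fit was tested on simulated data.

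The members and lists were chosen with earlier results of these data known. The genes named are all members, all other cholesterol synthesis genes, of each further list the brightest, the highest and the lowest and any gene past the adjusted p, and the 10 probes nearest the members' mean profile. Markers named as detected or not, further sterol sensing genes, and genes past the criterion were named after their values were seen. Some genes of these lists are counted but not reported here by name. The arrays carry gene symbols of their design, with older names matched through RefSeq, which also gave the promoter sequences. Alternatives were neqc (offset 16), no normalization, a common 75th percentile, cyclic loess, other detection filters (none, all 4 arrays, p under 0.01), no trend, the methods' t-test, the replicate block, leaving out each array, a 1.5-fold threshold and another probe rule.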

Additional observations from a re-analysis of the deposited data

How the results depend on the processing

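Of 112 alternative values of the 8 member probes, 101 kept their direction and their side of the criterion, 4 newly passed and 7 turned in sign. The count of members past the criterion was 0 in the reported analysis, beside 1802 of the 21726 tested probes. It was 1 with a common 75th percentile (Idi1, 0.28), beside 1827 of the 21726 tested probes. That scaling moved the median of all tested probes from 0.0023 to 0.032. Leaving out single arrays gave a median log2 difference of the member probes of -0.068 to 0.056. The sign turned without normalization for Fdps ILMN_1232741 (-0.0037) and with the common 75th percentile for Fdps ILMN_1225730 (0.015). Leaving out single arrays gave -0.19 to 0.20 for Fdps ILMN_1232741, -0.088 to 0.049 for Fdps ILMN_1225730, -0.58 to 0.096 for Sqle ILMN_2600348 and -0.091 to 0.29 for Dhcr7. For the other enzymes 1 gene passed without normalization, without a filter and with the replicate block, and 0 to 3 without single arrays (3 without anterior replicate 1, Nsdhl and Lbr among them), with a median of -0.0014 to 0.11. The median of the myelin genes was -0.83 to -0.73 without single arrays. Over all probes 1802 passed the criterion, 741 in the methods' t-test and 766 to 4677 without single arrays. The adjusted p was passed by 23 probes, by 123 without normalization, 73 without a filter, 13 without the trend, 0 in the methods' t-test (1763 before adjustment) and 0 to 2538 without single arrays. With 1 array left out, the lone array was assumed to vary like the other lobe. The causes of these changes were not tested.

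The replicate numbers are shared by the lobes, and the differences between replicates correlated across probes at 0.46 between the lobes. With 2 pairs the samples share only a number. With the replicate number as a block, 0 member probes passed either threshold, 2818 of all tested probes passed the criterion and 588 the adjusted p.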
